A study of Mus musculus with 33 samples.

Results

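The genes described here are 7 mouse genes of early neuron formation, taken by symbol from the 21844 genes to which the deposited transcript counts were summed. They are the proneural genes Neurog1 and Neurog2, the Notch effector Hes5, the neuronal tubulin gene Tubb3, the microtubule protein gene Dcx and the neuronal RNA-binding protein genes Elavl3 and Elavl4. All 7 were found, as 13 transcripts in all, with 4 each for Dcx and Elavl4 and 1 for each of the others. The name of the group describes what these genes are known for, and 3 of them were at or near 0 counts in these cells.

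Mouse embryonic stem cells were differentiated without serum as embryoid bodies, which are free-floating aggregates. The bodies were dispersed on day 2, treated, and harvested on day 4; the stem cell line is not given in the sources used here. The dose set had 1 library of cells given SB-431542 (SB), an inhibitor of the type I receptors for activin, Nodal and TGF-β, and 2 of the control in serum-free medium alone (SFM). It also had activin A libraries: 1 at the dose of 3 ng/mL, called AA3, 2 at a dose of 15 ng/mL, called AA15, and 1 with 100 ng/mL, called AA100. All 7 were made by DP-seq, in which defined heptamer primers amplify cDNA, and yeast transcripts had been added to SFM replicate 2. Pairs other than SFM are technical replicates by their labels, and for the SFM libraries separate cultures are not stated. A method set compared AA100 with AA3 by standard RNA-seq from 20 ng of mRNA (1 and 2 libraries), by DP-seq from 50 pg (2 and 1) and by SMART-seq from 50 pg (2 and 2). SMART-seq amplifies full-length cDNA from small samples. A dilution series from 10 ng to 1 pg of AA3 mRNA (12 DP-seq libraries), 3 libraries with other primer sets and 1 paired-end library, all of AA3, were also sequenced.

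Proneural genes encode basic helix-loop-helix (bHLH) transcription factors that commit neural progenitors to become neurons. A cell with high proneural activity displays Delta-type ligands, and these activate Notch receptors on its neighbours, where Hes repressors then hold proneural genes down. Committed cells go on to make neuronal tubulin, microtubule-binding and RNA-binding proteins. Activin and Nodal signalling is known to hold embryonic stem cells and epiblast away from the neural fate and to lead them towards primitive streak, mesoderm and endoderm, while inhibitors of the receptors favour neural differentiation.

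Library totals were 13053122 to 15707808 counts in the dose set and 10389043 to 30609013 in the method set. Levels are counts scaled to the library total, in the usual CPM unit, and intervals are exact 95% Poisson intervals that cover counting error only. The SFM libraries stood apart from each other: the log2 ratio between them had an SD of 1.93 over genes, against 0.539 for the AA15 pair. Summed over 15 progenitor markers, the level was 2156 CPM in SB, 1645 and 852 CPM in SFM, 976 CPM in AA3, 944 and 1071 CPM in AA15 and 933 CPM in AA100. Without Otx2, left out after seeing that it carried most of that sum in AA3, AA15 and AA100, the other 14 markers summed to 1087 CPM in SB, 758.5 and 801.4 CPM in SFM, 267 CPM in AA3, 230.2 and 241 CPM in AA15 and 131 CPM in AA100. Over 8 streak and mesoderm markers it was 3.86 CPM in SB, 95.4 and 29.95 CPM in SFM, 277 CPM in AA3, 486 and 609 CPM in AA15 and 1150 CPM in AA100. Over 12 markers of postmitotic neurons the sums lay between 107 and 166 CPM in all 7 libraries. Mapt, which encodes the axonal protein tau, was at 0 in all 7, and Rbfox3, a marker of mature neurons, in all but SFM replicate 1. Glial markers summed to 68.6 to 192 CPM, with Mog, a myelin gene, at 0 in all but SFM replicate 1 and Gfap, an astrocyte gene, in all but AA3 and SFM replicate 2. The counting rule is not stated, so 0 counts do not show that an RNA was absent. Rbpj, a Notch pathway gene, was also at 0 in all 7, with 17 counts in each AA3 library of standard RNA-seq. What the markers above contribute to the values below was not tested. In bulk RNA, fewer cells of a type and less RNA per cell cannot be told apart.

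Neurog2, which encodes the proneural factor neurogenin 2, was counted in the inhibitor and control libraries and was absent from the counts at the higher activin doses. It had 102 counts in SB, 74 and 59 in the SFM libraries, 9 in AA3, 0 in both AA15 libraries and 0 in AA100. These counts correspond to 6.78 CPM in SB (95% interval 5.53 to 8.23), 4.81 and 4.52 CPM in SFM, and 0.573 CPM in AA3 (0.262 to 1.09). The AA3, AA15 and AA100 libraries all lay below both SFM libraries, and SB lay above both. The SFM libraries differed by 1.06-fold for Neurog2, while the other members with more than 5 counts there differed by 2.95-fold or more.

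In AA3 the mean level of Neurog2 was 8.14-fold lower than in SFM (counting interval 4.17 to 18.2). With a floor of 3 counts over the group, it was at least 47.1-fold lower in AA15 and at least 24.0-fold lower in AA100 than in SFM. In AA100 it was at least 34.9-fold lower than in SB. The step to AA15 from AA3 is bounded at 5.78-fold or more, because 9 counts were left at AA3. SB was 1.45-fold above the SFM mean (counting interval 1.11 to 1.89), which edgeR's quasi-likelihood test did not call (log2 change 0.35 ± 0.67 SE, Benjamini-Hochberg adjusted p = 0.963).

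Across SFM, AA3, AA15 and AA100, taken as equally spaced dose steps, Neurog2 fell by 3.68 ± 0.35 on the log2 scale per step (edgeR's quasi-likelihood test, Benjamini-Hochberg adjusted p = 0.0287). This was the steepest of the 30 falls called among 12102 genes tested, where 0.397% of genes were called in either direction and 0.248% as falls. Its size depends on 3 libraries at 0 counts and sets no bound. The call was lost without SFM replicate 1 (adjusted p = 0.0581), and without AA15 replicate 1 (0.193) or AA15 replicate 2 (0.19), with slopes of −3.84 to −3.49 in these edgeR fits. In the fit without SFM replicate 1, 0.0168% of genes were called. When SFM replicate 2 was left out, 5.79% of genes were called (2.82% as falls) and the slope of Neurog2 was −3.48 (adjusted p = 7.87e-05). DESeq2, which called 4.11%, gave an adjusted p of 9.61e-10.

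Neurog1, which encodes neurogenin 1, the closest relative of Neurog2, was near the counting floor throughout. It had 2 counts in SB, 5 and 0 in SFM, 1 in AA3, 1 and 0 in AA15 and 0 in AA100, which is at most 0.325 CPM. The SFM libraries spanned the whole range of the dose set, so no order of the groups can be read. It did not pass the filter on low counts in the dose set or in the method set, and in the method set it held 0 to 6 counts a library. Over all 33 libraries it had 37 counts, of which 23 fell in the method set.

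Hes5, a bHLH repressor that Notch signalling switches on in neural progenitors, was ordered as Neurog2 was over the doses, apart from 1 control library. It had 144 counts in SB, 92 and 7 in the SFM libraries, 20 in AA3, 3 and 5 in AA15, with 2 in AA100. In CPM the SB level was 9.57 (8.07 to 11.3), the SFM levels 5.98 and 0.536 and the AA3 level 1.27 (0.778 to 1.97), with 0.191 and 0.343 for AA15 and 0.129 for AA100. SB was above both SFM libraries, and AA15 and AA100 were below both. AA3 lay between them, and SFM replicate 1 was 11.1-fold above SFM replicate 2.

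Against SB, Hes5 was 7.52-fold lower in AA3 (counting interval 4.69 to 12.7), 35.9-fold lower in AA15 (17.9 to 85.5) and 74.0-fold lower in AA100 (20.1 to 617). The interval of the last is wide because AA100 held 2 counts. The trend over dose was −1.63 ± 0.38 per step and was not called (edgeR's quasi-likelihood test, adjusted p = 0.154). It passed without SFM replicate 2 (−2.01 ± 0.22, adjusted p = 9.75e-05), by DESeq2 (−1.65, 0.00518), and in edgeR with SB as the step below SFM (−1.60, 0.032). Without SFM replicate 1 the slope was −0.98 (adjusted p = 0.228).

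The region just before the annotated start of Hes5 is shown because Hes5 is the member that Notch signalling controls, through the DNA-binding protein RBPJ. It spans chr4:154960673-154960922 on the forward strand of GRCm38.p6 (from RefSeq), and part of it is also annotated as an exon of the noncoding transcript Gm20421. Capitals mark the word TGGGAA, the core of the RBPJ motif, on either strand. Motifs of Ikaros zinc finger factors contain the same letters.
Hes5 upstream: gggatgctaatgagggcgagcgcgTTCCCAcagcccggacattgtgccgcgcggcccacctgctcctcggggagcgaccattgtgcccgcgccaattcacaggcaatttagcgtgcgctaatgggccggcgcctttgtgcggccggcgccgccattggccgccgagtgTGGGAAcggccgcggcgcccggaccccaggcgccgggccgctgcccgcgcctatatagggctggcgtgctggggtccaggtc
The word occurs 2 times here, and 21.6% of 32851 promoters of the same length of 250 bases hold it at least once. Of the 7 members, Hes5 alone has it in that window. A match describes the letters and does not show that RBPJ binds. Of the 1242 words of 32 bases in the Hes5 transcript, 27.7% also occur in Gm20421, so reads from there could be lost or shared, depending on the counting rule.

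**Figure D1:**
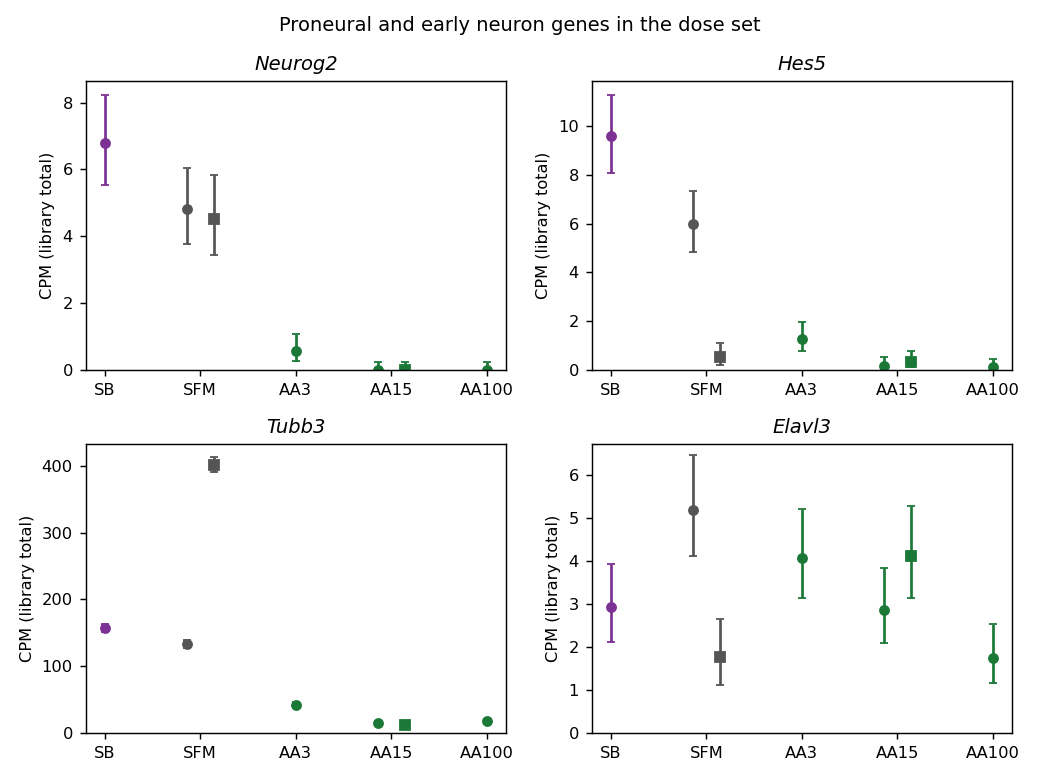
Levels of Neurog2, Hes5, Tubb3 and Elavl3 in the 7 dose-set libraries, in CPM of the library total, with 95% Poisson intervals; circles are replicate 1 and squares replicate 2, and each panel has its own linear axis from 0. Neurog2 is at 0 in AA15 and AA100, the SFM libraries differ 11.1-fold for Hes5 and 3.01-fold for Tubb3, and Elavl3 stays between 1.75 and 5.20 CPM.

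Tubb3 encodes class III β-tubulin, a tubulin of newly formed neurons, and its level was lower in every activin library than in SB and SFM. It had 2365 counts in SB, 2054 and 5250 in SFM, 666 in AA3, 229 and 170 in AA15 and 277 in AA100. The levels were 157 CPM in SB, 133 and 402 CPM in SFM, 42.4 CPM in AA3, 14.6 and 11.7 CPM in AA15 and 17.9 CPM in AA100. All 4 activin libraries lay below SB and below both SFM libraries, and SB lay between the SFM libraries. AA100 was 1.37-fold above the AA15 mean (counting interval 1.16 to 1.59), so the lowest level was at AA15 and not at the highest dose.

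Relative to the SFM mean, Tubb3 was 6.32-fold lower in AA3, 20.4-fold lower in AA15 and 14.9-fold lower in AA100. Relative to SB it was 3.71-fold lower in AA3 and 8.77-fold lower in AA100. The trend was −1.55 ± 0.35 per step and was not called by edgeR's quasi-likelihood test (adjusted p = 0.137). It was called when SFM replicate 2 was left out (−1.03 ± 0.19, adjusted p = 0.0152), and DESeq2 gave −1.58 (0.00134). Tubb3 was 3.01-fold higher in SFM replicate 2 than in SFM replicate 1. In the same libraries Map1b, a microtubule-associated protein gene, was at 565 and 26.5 CPM, while Nefl, a neurofilament gene, was at 0.46 and 3.90 CPM. The part of this difference between controls in the Tubb3 result was not tested, but AA3, AA15 and AA100 were also below the lower control. Of the 32-base words of Tubb3, 2.89% occur in other genes, mostly in Tubb6, another β-tubulin gene.

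Elavl3, whose protein HuC binds and stabilises neuronal mRNAs, did not follow the other members. It had 44 counts in SB, 80 and 23 in SFM, 64 in AA3, 45 and 60 in AA15 and 27 in AA100. The range was 1.75 CPM in AA100 to 5.20 CPM in SFM replicate 1. The SFM libraries differed by 2.95-fold, and the SB, AA3 and AA15 levels all fell between them, while AA100 lay just under the lower one at 1.76 CPM. The slope over dose was −0.22 ± 0.22 (edgeR's quasi-likelihood test, adjusted p = 0.631). The AA15 mean was 3.49 CPM against an SFM mean of 3.48 CPM, a ratio of 1.00 with a counting interval of 0.723 to 1.27. AA100 was called against SFM only when SFM replicate 2 was left out (log2 change −1.46 ± 0.48, adjusted p = 0.0242).

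The upstream window of Elavl3 is given beside that of Hes5, as the member whose level followed the dose least among those tested. It is chr9:22052024-22052273 on the reverse strand of GRCm38.p6 (from RefSeq). Capitals mark E-boxes, CANNTG, the word that bHLH dimers recognise, and it reads the same on both strands.
Elavl3 upstream: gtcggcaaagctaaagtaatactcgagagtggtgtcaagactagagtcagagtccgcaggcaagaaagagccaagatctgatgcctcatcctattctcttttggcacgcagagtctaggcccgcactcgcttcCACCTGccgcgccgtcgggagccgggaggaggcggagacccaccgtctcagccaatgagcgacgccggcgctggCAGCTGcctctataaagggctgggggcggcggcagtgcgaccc
It has 2 E-boxes and 0 words TGGGAA, and 66.2% of all promoters of this length hold at least 1 E-box. The Hes5 window has 1 E-box, left in lower case above. The form CAGATG, preferred by neurogenins, is in 14.4% of promoters and in neither of these windows.

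Dcx, which encodes doublecortin, a microtubule protein of migrating young neurons, had 0 counts in all 33 libraries. In the dose set this allows up to 0.191 to 0.23 CPM, the level of 3 counts. The counts are described as unique reads per transcript, and Dcx is listed as 4 transcripts that overlap. Of their 32-base words, 6.54%, 54.7%, 0% and 2.3% occur in no other Dcx transcript. The rule for reads shared by isoforms is not stated in the labels or headers, and 0 counts do not show that Dcx RNA was absent. Among the 201 genes with 4 transcripts, 21.9% had 0 counts in all libraries, against 15.7% of the 18205 genes with 1 transcript and 12.8% of the 3080 genes with more than 1.

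Elavl4, whose protein HuD is a neuronal relative of HuC, had 2 counts in SB, 1 and 0 in SFM, 1 in AA3, 0 and 2 in AA15 and 0 in AA100. These counts show no order. It is also listed as 4 transcripts, of whose words 7.31%, 3.73%, 0.71% and 0% occur in no other Elavl4 transcript. Over all 33 libraries it had 20 counts and was at 0 in 22 of them. Elavl4 and Dcx, like Neurog1, did not pass the low-count filter in either set, so 4 members were tested in the dose set and 3 in the method set.

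In the comparisons of single groups edgeR's quasi-likelihood test called 0 of 12180 genes in each case, in the fits of all 7 libraries with no block. At an unadjusted p under 0.05 there were 179 genes for SB, 197 for AA3, 702 for AA15 and 541 for AA100 against SFM, and 591 for AA100 against SB. DESeq2 called 17, 14, 168, 106 and 131 genes (0.14%, 0.115%, 1.38%, 0.87% and 1.08%). Among the members DESeq2 called Neurog2 and Tubb3 in AA15 against SFM (adjusted p = 0.000192 and 1.01e-05) and in AA100 against SFM (0.0272 and 0.00623), and Neurog2 in AA100 against SB (0.026). These comparisons share their control libraries.

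In edgeR the Tubb3 log2 change was −2.91 ± 1.15 in AA3, −4.60 ± 0.93 in AA15 and −4.16 ± 1.23 in AA100 against SFM. In the same order the change of Hes5 was −1.29 ± 1.33, −3.51 ± 1.20 and −4.52 ± 1.75, and that of Elavl3 was 0.205 ± 0.74, −0.01 ± 0.61 and −1.02 ± 0.79. Neurog2 had −3.13 ± 0.84 in AA3. Of the 4 tested members, 4 were below both SFM libraries in AA100, where 26.2% of genes were. In AA15 it was 3 (21.3% of genes), in AA3 2 (25.1%), and in SB 2 were above both (29.2%).

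With a single SFM library the spread comes from the AA15 technical pair alone, and far more genes are called. With SFM replicate 1 kept, edgeR called 5.27% of genes for AA3, 13.0% for AA15 and 12.9% for AA100. With SFM replicate 2 kept, it called 57.3%, 64.7% and 59.2%. Neurog2 and Tubb3 were lower in AA3, AA15 and AA100 in each of these fits. For Tubb3 in AA3 the change was −1.54 against SFM replicate 1 (adjusted p = 4.52e-05) and −3.61 against SFM replicate 2 (1.16e-28). Hes5 was called at all 3 doses against SFM replicate 1 (−2.11, −4.32 and −5.33, adjusted p = 0.00219, 1.85e-12 and 1.13e-09). Against SFM replicate 2 it was called at none of them (0.88, −1.35 and −2.35, adjusted p = 0.319, 0.154 and 0.0607), and its direction in AA3 was the opposite.

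Between the inhibitor and the control the order differed by member. SB had 6.78 CPM of Neurog2 and 9.57 CPM of Hes5, above the 4.81 and 5.98 CPM of SFM replicate 1, the higher control for both. Against SFM replicate 1 alone, with 4.12% of genes called, none of the 4 tested members passed edgeR's test (adjusted p = 0.644 for Neurog2, 0.41 for Hes5, 0.71 for Tubb3 and 0.422 for Elavl3). Against SFM replicate 2 alone, with 58.4% called, Hes5 was higher in SB (log2 change 3.72, adjusted p = 1.6e-08) and Tubb3 was lower (−1.78, 6.1e-09).

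Between the ends of the range, AA100 against SB, the log2 change was −6.07 ± 1.90 for Hes5, −3.08 ± 1.23 for Tubb3 and −0.69 ± 0.88 for Elavl3, and Neurog2 had 0 against 102 counts. None was called in edgeR with all 7 libraries (adjusted p = 0.592 or more). In the fit without SFM replicate 2, where 16.3% of genes were called, Neurog2, Hes5 and Tubb3 were lower in AA100 (adjusted p = 5.45e-12, 3.93e-13 and 1.32e-16), and Elavl3 was not called (0.421). Without SFM replicate 1 the same 3 of the 4 were called, with 16.4% of genes called.

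The other genes of the pathway were read from lists of neural genes. Of 18 further bHLH genes of neurogenesis, their partners and their Id antagonists, 11 were tested in the dose trend and 0 passed edgeR's test, with a median slope of −0.32 against 0.00 over all genes. Neurod4, which acts after the neurogenins, had 10 counts in SB, 3 and 21 in SFM, 1 in AA3 and 0 in AA15 and AA100 (slope −3.40 ± 0.73, adjusted p = 0.125). Atoh1, a proneural gene of hindbrain and sensory cells, had a slope of −1.89 ± 0.46 (adjusted p = 0.173). Its counts were few, with 0 in SB, 5 and 14 in SFM, 2 in AA3, 1 and 1 in AA15 and 0 in AA100. When SFM replicate 2 was left out, 8 of the list were tested. Bhlhe22, a bHLH repressor gene, had a slope of 1.07 per step. Id2 and Id3, which sequester bHLH partners, had slopes of −0.61 and −0.52. Id2 had 105 counts in SFM replicate 2, against 685 in AA3, 570 and 417 in AA15 and 322 in AA100. Id3 had 39 there, against 89 in AA3, 48 and 48 in AA15 and 56 in AA100. The falls of Id2 and Id3 from the control therefore rest on SFM replicate 1. Counts of both genes were also lower in AA15 and AA100 than in AA3.

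In the Notch pathway, 20 of 25 listed genes were tested in the trend and 0 passed, with 10 slopes above 0 and 10 below and a median of 0.01. Hes3, another Hes repressor of neural progenitors, had the steepest slope (−2.30 ± 0.36, adjusted p = 0.0581), with 15 counts in SB, 46 and 12 in SFM, 3 in AA3, 2 and 1 in AA15 and 0 in AA100. Lfng, which modifies Notch receptors, had −1.09 ± 0.29 (0.203). Hes1, the Hes repressor found in many tissues, was at 93.2 CPM in SB, 63.1 and 17.2 CPM in SFM, 90.2 CPM in AA3, 189 and 187 CPM in AA15 and 229 CPM in AA100. That is the opposite order to Hes5 along the activin doses.

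The trend was also fitted without SFM replicate 2. Dll3, a Delta-type protein of the presomitic mesoderm, rose by 0.89 per step, Hes1 by 0.73 and Hey1, a Hes relative, by 0.60. Hes3 fell by 2.59 and Lfng by 0.68 on the log2 scale. Without SFM replicate 1 the slopes were 1.48 for Dll3, 1.15 for Hes1, 0.0026 for Hey1, −1.89 for Hes3 and −1.20 for Lfng. The rise of Hey1 thus depended on which control was kept. Without SFM replicate 2, AA100 against SB gave −2.07 ± 0.38 for Dll1, the Delta ligand of neurogenesis, and 3.94 ± 0.33 for Dll3. Dll1 was at 4.66 CPM in AA100 and 20.3 CPM in SB, and Dll3 at 176 and 11.9 CPM.

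Of 17 listed targets and relays of proneural factors, 10 were tested in the trend and 0 passed, with a median slope of −0.14. Insm1, a zinc finger gene of newborn neurons, was at 21.7 CPM in SB, 6.04 and 16.8 CPM in SFM, 3.44 CPM in AA3, 1.27 and 1.10 CPM in AA15 and 0.906 CPM in AA100. Every activin library was below every SB and SFM library (slope −1.44 ± 0.27, adjusted p = 0.0917), and Insm1 was called without SFM replicate 2 (−0.98, 0.00224). Tbr1, a T-box gene of cortical neurons, had 1.18 ± 0.36 (0.27).

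Genes of neuron structure, such as cytoskeletal, adhesion and synaptic genes, showed no common direction with Tubb3. Of 32 listed, 26 were tested and 0 passed, with 10 slopes above 0, 16 below and a median of −0.13. Map1b had the largest slope (−1.86 ± 0.52, adjusted p = 0.233). Nefl had 1.11 ± 0.43 (0.368). Without SFM replicate 2, L1cam, a cell adhesion gene, had a slope of 0.85 per step. Nsg1, a gene of neuronal endosomes, had −0.82, Nova1, a splicing factor gene, −0.57, Tuba1a, an α-tubulin gene, −0.43, and Map1b −0.42. For Tuba1a the fall from the control rests on SFM replicate 1, while its counts were also lower in AA15 and AA100 than in AA3. In SFM replicate 2 it had 38 counts, against 446 in AA3, 238 and 249 in AA15 and 202 in AA100. Nsg1 and Map1b had 294 and 7373 counts in SFM replicate 2, more than in any activin library. Nova1 had 207 there, against 126 to 241 in the activin libraries.

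Among 15 progenitor markers 14 were tested and 2 fell in the trend. Pax6, which encodes a homeodomain factor known to activate Neurog2 in the cortex, had a slope of −2.68 ± 0.33 (adjusted p = 0.0352), and Lhx2, a forebrain and eye field gene, −2.59 ± 0.24 (0.0287). Pax6 was at 436 CPM in SB, 185 and 370 CPM in SFM and 14.6 CPM in AA3. It was at 4.14 and 4.797 CPM in AA15 and 1.62 CPM in AA100. As for Neurog2, SB was highest, and AA3 lay below both SFM libraries and above AA15 and AA100. The SFM libraries stood in the opposite order for the 2 genes, and Neurog2 was at 0 counts in AA15 and AA100. Leaving out SFM replicate 2 gave 7 falls of 14. Of 16 markers of neuron classes, ganglia and crest, 9 were tested and 1 rose, Lhx1 (1.28 ± 0.13, adjusted p = 0.0287), a LIM homeobox gene that is also known from anterior mesoderm. Without SFM replicate 1 Lhx2 stayed called (adjusted p = 0.0318) while Pax6 and Lhx1 had an adjusted p of 0.0581, and with either AA15 library left out the trend had 0 calls. Of 8 glial genes 5 were tested and 0 passed; of the streak, endoderm and pluripotency lists, 2 of 7, 1 of 8 and 0 of 7 tested genes rose and none fell.

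**Figure D2:**
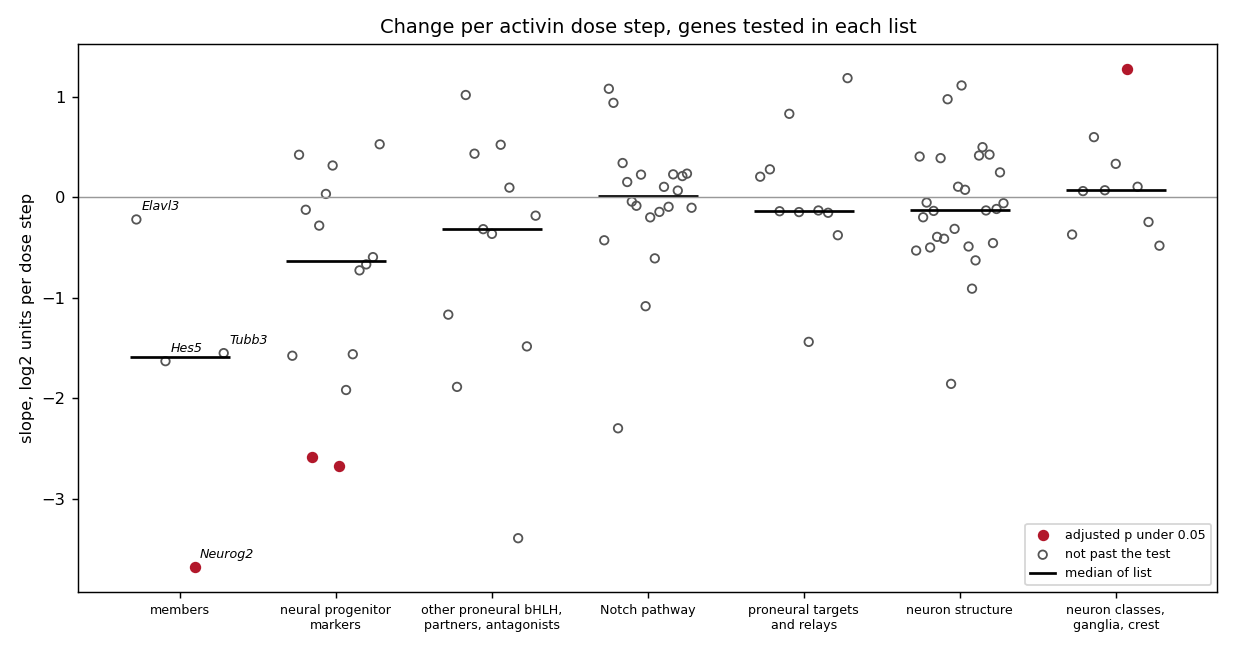
Slope per activin dose step (log2 units, edgeR, SFM to AA100) of every tested gene in 7 lists, with filled points past an adjusted p of 0.05 and bars at list medians. Neurog2, Pax6 and Lhx2 are the called falls and Lhx1 the called rise; the medians are −1.59 for the 4 tested members, −0.63 for progenitor markers and between −0.32 and 0.07 for the other lists.

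Outside these lists, the genes most like the mean of the members over the 7 dose-set libraries were Zbtb16, Prkar2b, Lmx1a, Prr36 and Pcdh18, with Pearson's r of 0.997, 0.997, 0.996, 0.993 and 0.993, among 8420 genes averaging 50 counts or more. Most like Neurog2 alone were Zfp36l1, Tox3, Fezf1, Wnt8b and Mylk, at 0.998, 0.997, 0.995, 0.994 and 0.993. The correlations use log2 of normalised CPM plus 1, rest on 7 libraries of which 2 pairs are replicates, and only describe likeness. Lmx1a, a LIM homeobox gene of the roof plate and midbrain, was at 15.6 CPM in SB, 13.4 and 8.50 CPM in SFM, 3.31 CPM in AA3, 0.255 and 0.411 CPM in AA15 and 0.259 CPM in AA100. Wnt8b, a Wnt ligand gene of the dorsal forebrain, was at 108 CPM in SB, 61.2 and 106 CPM in SFM, 3.18 CPM in AA3, 1.27 and 1.10 CPM in AA15 and 0.324 CPM in AA100.

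In the method set AA100 was compared with AA3 under each library method. No tested member was called by any method in the joint edgeR fit of 10 libraries and 14072 genes, in which 1.91% of genes were called by standard RNA-seq, 2.35% by DP-seq and 4.07% by SMART-seq. Called genes split as 181 higher and 149 lower in DP-seq, and as 137 and 176 with RLE size factors in place of TMM. The 3 members tested were Hes5, Tubb3 and Elavl3.

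Tubb3 was at 24.5 CPM in the AA100 library and 33.5 and 34.1 CPM in the AA3 libraries of standard RNA-seq. In DP-seq it was at 183 and 142 CPM in AA100 and 179 CPM in AA3, and in SMART-seq at 31.6 and 42.8 CPM in AA100 and 51.3 and 40.7 CPM in AA3. Only in standard RNA-seq did the groups not overlap. The log2 changes were −0.45 ± 0.31 in standard RNA-seq, −0.14 ± 0.29 in DP-seq and −0.44 ± 0.24 in SMART-seq (edgeR, adjusted p = 1, 0.889 and 0.349). A test of whether they differ gave an adjusted p of 0.934 in the edgeR fit, in which 0.931% of genes were called as differing between methods. Fitted on its own 3 libraries, standard RNA-seq gave −0.44 ± 0.10 (adjusted p = 4.26e-05), in a fit that called 62.3% of genes with a spread from the AA3 technical pair alone.

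In the dose set Tubb3 was 2.36-fold lower in AA100 than in AA3 (277 against 666 counts, counting interval 2.05 to 2.73), whereas the ratio of means in the method set was 1.38-fold lower by standard RNA-seq, 1.10-fold by DP-seq and 1.24-fold by SMART-seq. The labels do not say whether both sets used the same cultures.

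Hes5 held few counts in the method set. It had 3 counts in AA100 and 8 and 7 in AA3 by standard RNA-seq, 0 and 25 in AA100 and 0 in AA3 by DP-seq, and 0 and 5 in AA100 and 6 and 1 in AA3 by SMART-seq. The DP-seq AA100 libraries are technical replicates, and 1 of them held all 25 counts. The direction in DP-seq therefore rests on 1 library, and edgeR's test of a difference between methods gave an adjusted p of 0.723. Hes5 reached 0.745 CPM in AA3 by standard RNA-seq, against 1.27 CPM in the AA3 library of the dose set.

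Neurog2 had 0 counts in AA100 and 1 and 2 in AA3 by standard RNA-seq, 3 and 1 in AA100 and 1 in AA3 by DP-seq, and 0 and 1 in AA100 and 0 and 1 in AA3 by SMART-seq. No difference was detectable with so few counts. In AA3 the level was 0.0931 and 0.192 CPM by standard RNA-seq, against 0.573 CPM in the dose set (ratio of means 0.249, counting interval 0.0431 to 0.992). Over the 12 dilution libraries Neurog2 had 6 counts, all at 1 ng, and Hes5 had 6 counts.

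Elavl3 was at 10.5 CPM in AA100 and 12.01 and 13.1 CPM in AA3 by standard RNA-seq. By DP-seq it was at 8.07 and 16.5 CPM in AA100 and 9.74 CPM in AA3, and by SMART-seq at 1.16 and 0.282 CPM in AA100 and 1.16 and 0.915 CPM in AA3. The groups overlapped by DP-seq and SMART-seq, and by standard RNA-seq AA100 lay below both AA3 libraries. Neither the difference between doses (edgeR's quasi-likelihood test, adjusted p = 1, 0.953 and 0.728) nor that between methods (0.952) was called. At AA3 the mean level by SMART-seq was 12.1-fold lower than by standard RNA-seq (counting interval 9.17 to 16.3). This fold uses library totals, and the interval leaves out differences in scaling between methods. TMM factors were 1.78 and 1.79 for the AA3 libraries of standard RNA-seq, 0.609 and 0.61 for SMART-seq and 1.02 for DP-seq. Scaling by them would make the SMART-seq fold smaller and place DP-seq above standard RNA-seq.

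**Figure D3:**
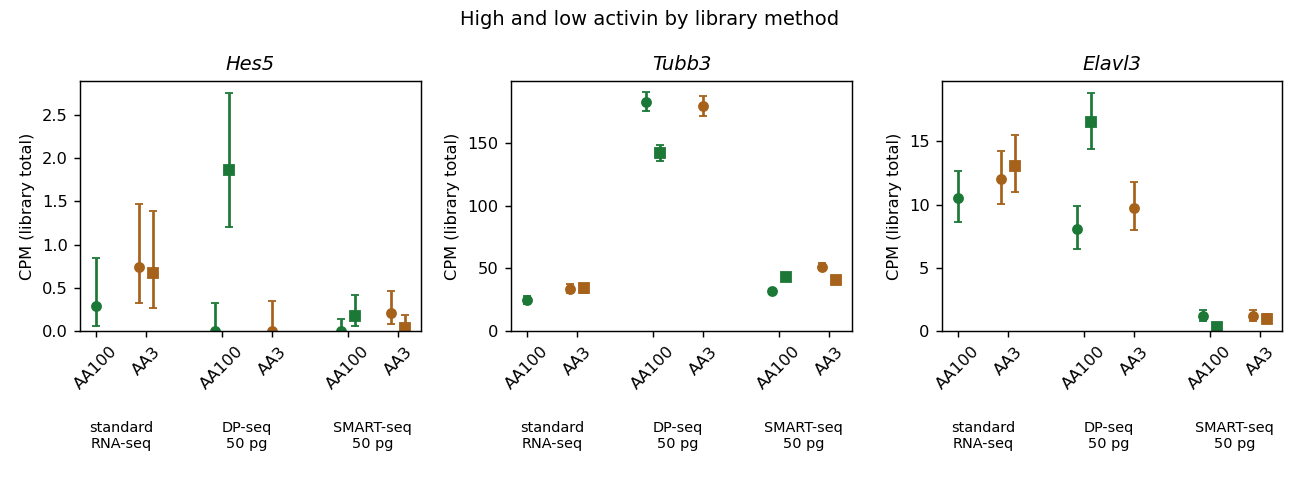
Levels of Hes5, Tubb3 and Elavl3 in AA100 (green) and AA3 (brown) by library method, in CPM of the library total with 95% Poisson intervals; circles are replicate 1 and squares replicate 2. Tubb3 is highest by DP-seq (142 to 183 CPM), Elavl3 lowest by SMART-seq (0.282 to 1.16 CPM), and 1 DP-seq library holds all 25 Hes5 counts of its method.

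In the pathway lists the same contrast called few genes. Among 9 tested bHLH genes Id3 was lower in AA100 by standard RNA-seq (log2 change −1.12 ± 0.17, edgeR's adjusted p = 0.0197) and by DP-seq (−1.54, 0.0127), and Id2 was lower by DP-seq (−1.36, 0.0372). Of 24 Notch genes, Hes1 was higher by standard RNA-seq (1.03 ± 0.14, 0.012), with 154 CPM in AA100 against 77.6 and 74.6 CPM in AA3. Dll1 was lower by DP-seq (0.00912), with 3 counts in each AA100 library against 222 in AA3. It had 49 counts in AA100 against 379 and 397 in AA3 by standard RNA-seq, where it was not called. In the dose set Dll1 was at 4.66 CPM in AA100 and 1.66 CPM in AA3, so the order of the doses was the opposite. The same held for Dll3, with 2721 counts in AA100 and 533 in AA3 of the dose set. In the method set its log2 change was −1.05 by standard RNA-seq and −0.91 by DP-seq, neither of them called. By SMART-seq Mfng, a modifier of Notch receptors, was higher (5.13, adjusted p just under 0.05), while Dll3 and Notch2, a Notch receptor gene, were lower (−1.70, 0.0285, and −0.88, 0.0459). Notch2 had −0.99 by standard RNA-seq and 1.05 by DP-seq, neither of them called, so its direction differed between methods. Of 11 targets Rcor2, a corepressor gene, was higher by DP-seq (1.62, 0.021). Of 29 structure genes, Gng3, a G protein subunit gene of neurons, was higher by standard RNA-seq (1.83 ± 0.15, 0.00232). The synaptic vesicle gene Syp was higher by DP-seq, with 132 and 72 counts in AA100 against 0 in AA3. Stmn1, a tubulin-binding protein gene, was higher by SMART-seq (0.96, 0.0026), and Dpysl2, a gene of axon growth, was lower (−1.25, 0.0319). No progenitor marker of 14 was called by any method, and of 10 genes of neuron classes Lhx1 was higher by SMART-seq (1.09, 0.0319).

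Levels of Tubb3 and Elavl3 also differed between preparations of AA3 RNA. Tubb3 averaged 293 ± 10.9 CPM by DP-seq from 10 ng and 33.8 ± 0.41 CPM by standard RNA-seq (SD, n = 2 technical replicates each), which is 8.67-fold higher by DP-seq (counting interval 8.12 to 9.54). Elavl3 averaged 7.65 ± 0.82 CPM by DP-seq from 10 ng and 12.5 ± 0.75 CPM by standard RNA-seq, which is 1.64-fold lower by DP-seq. Both folds use library totals without TMM scaling, and how they would change with it was not tested. Tubb3 in the AA3 library of the dose set, also DP-seq, was at 42.4 CPM. With decreasing input from 10 ng to 1 ng, 100 pg, 50 pg, 10 pg and 1 pg the Tubb3 mean was 293, 283, 621, 407, 541 and 723 CPM. The pair that differed most was that at 1 pg, with 835 and 610 CPM. The Elavl3 mean at the same inputs was 7.65, 10.0, 10.99, 4.90, 32.8 and 36.9 CPM. At 1 pg the Elavl3 libraries had 3 and 30 counts, or 7.02 and 66.8 CPM.

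The 3 primer sets, designed to suppress ribosomal transcripts and used on about 500 pg of AA3 mRNA, gave Tubb3 2803, 50 and 42 counts (467, 9.96 and 7.81 CPM). Elavl3 had 358, 32 and 14 counts (59.7, 6.38 and 2.60 CPM). Tubb3 was thus 46.9-fold higher with set 1 than with set 2 (counting interval 35.5 to 63.4), and Elavl3 9.37-fold (6.52 to 13.9), from 1 library each. The paired-end library held 927 counts of Tubb3 (158 CPM) and 28 of Elavl3 (4.78 CPM).

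**Figure D4:**
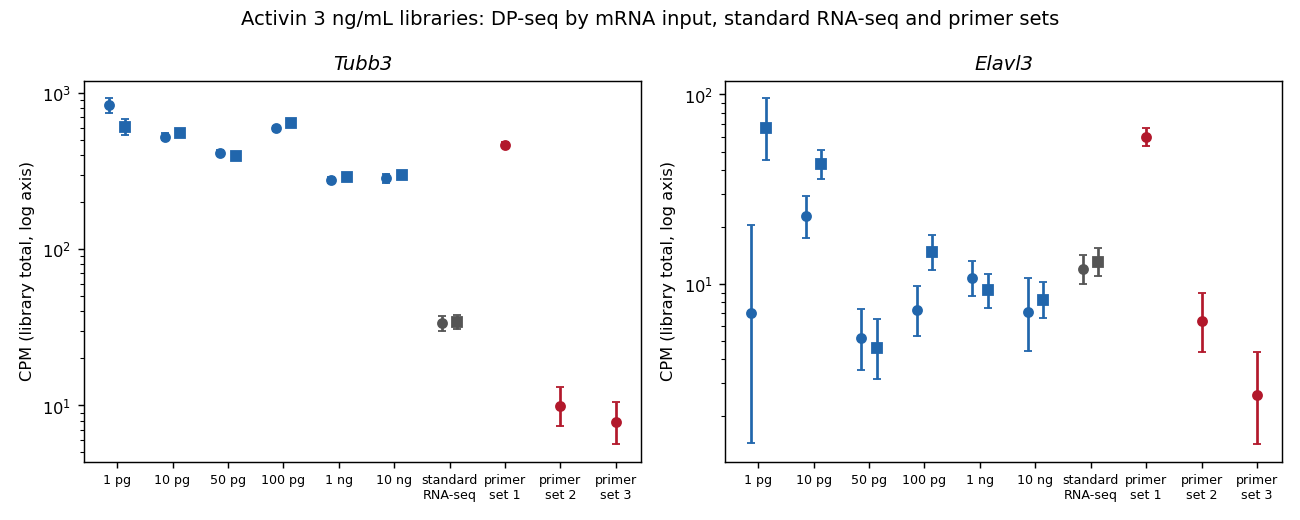
Levels of Tubb3 and Elavl3 in AA3 libraries by DP-seq mRNA input (blue, 2 libraries each), by standard RNA-seq (grey) and with 3 primer sets (red, 1 library each), in CPM on a log axis with 95% Poisson intervals. Tubb3 lies between 277 and 835 CPM in the DP-seq dilution series and at 33.5 and 34.1 CPM by standard RNA-seq. Primer set 1 is far above sets 2 and 3 for both genes.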

How the data were processed

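RNA was sequenced from 33 libraries, each with a table of unique read counts per RefSeq transcript, per the file headers. The authors deposited whole counts in 25 files; the other 8 hold 15 non-whole values in all, so these deposited files were read as estimated counts, rounded to whole numbers. No label or header used here gives the aligner, counting rule, strand use or genome build. RefSeq's gene table named 25857 of the 26566 transcripts and GENCODE's 150 more, and counts were summed to 21844 genes; 559 transcripts kept their own identifier. Members and gene lists were chosen with earlier results of these data known.

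The tests used edgeR 4.0.16 with R 4.3.3: filterByExpr by group (minimum count 10, minimum total 15), TMM scaling, robust quasi-likelihood fits over all tested genes and Benjamini-Hochberg adjustment, with a threshold of 0.05. The trend was fitted over SFM and the 3 activin doses, the single comparisons all 7 dose-set libraries, and the method comparisons 10 libraries. A group of 1 library is assumed to vary like the others. Apart from SFM, pairs are technical replicates, so p-values of the method comparisons measure technical spread. In the dose set p-values also rest on the spread of the SFM pair, and in the trend on departures from a straight line. The alternatives were DESeq2 1.42.0, RLE size factors, no filter, a replicate block, other dose codings, each method alone and leaving out each replicate; the code was also tested on simulated data. Floors are 3 counts over a group, and amplified reads are not independent molecules. CPM use library totals; folds are ratios of mean CPM, and their counting intervals use summed counts. All members were named, and from each neural list the called genes (up to 4) or the 2 of largest change; the 5 genes of most like pattern were those of highest Pearson's r. Where Hes1, Dll1, Dll3, Lmx1a or Wnt8b are given outside that rule, they were picked after their values were seen. Words and promoter letters were counted with Python 3.11.15.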

Additional observations from a re-analysis of the deposited data

How the results depend on the processing

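Over the alternatives tried, 317 of the members' values kept their direction and their side of the threshold, 35 became calls, 4 lost a call and 14 turned their sign. The lost calls are those of Neurog2 in the dose trend: 3 when a library was left out, as given above, and the one with the replicate block, given below.

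Genes called in the dose trend numbered 48, and 497 with DESeq2, 18 with log2(dose + 1), 196 with SB as the lowest step, 0 with the replicate block, and 0 to 693 when a replicate was left out: 2 without SFM replicate 1, 693 without SFM replicate 2 and 0 without either AA15 replicate. The comparisons of single groups went from 0 calls to 17 (SB), 14 (AA3), 168 (AA15), 106 (AA100) and 131 (AA100 against SB) with DESeq2. When a replicate was left out they gave 0 to 7055, 0 to 6921, 0 to 7815, 0 to 7156 and 0 to 1982 calls, with the calls arising without SFM replicate 1 or SFM replicate 2. In the method set the calls were 269 by standard RNA-seq, 330 by DP-seq, 573 by SMART-seq and 131 for the difference between methods. DESeq2 gave 627, 1217, 1624 and 921, and leaving out a replicate 47 to 424, 79 to 519, 146 to 874 and 4 to 323. A method's own libraries gave 7849 for standard RNA-seq and 155 for SMART-seq. The cause of these changes was not tested, apart from the spread, which comes from fewer pairs when a library is left out.

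Replicate numbers of the SFM and AA15 pairs are shared only as numbers: their deviations correlated at −0.177, and at −0.016 to 0.00896 in the method set. A crossed pairing, chosen after seeing the data, gave 40 calls in the trend and 5 in AA15 against SFM. The block as numbered gave 0 in the trend (Neurog2 slope −3.67, adjusted p = 0.057) and in every other comparison of the dose set, and 213, 256, 404 and 89 in the method set.

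The sign turned as follows (log2 change; ranges are over fits that leave out a replicate). Against SFM in SB, Tubb3 ranged from −1.78 without SFM replicate 1 to 0.29 without SFM replicate 2, and Elavl3 from −0.77 without SFM replicate 2 to 0.31 without SFM replicate 1. In AA3, Hes5 ranged from −2.11 without SFM replicate 2 to 0.88 without SFM replicate 1, and Elavl3 from −0.24 to 0.85 in the same fits. Elavl3 in AA15, at −0.01 with all libraries, ranged from −0.44 without SFM replicate 2 to 0.63 without SFM replicate 1, with 0.26 without AA15 replicate 1. It was at 0.0074 with no filter, 0.058 with the replicate block and 0.065 with the crossed block. In AA100 against AA3 by DP-seq, Tubb3 was at −0.37 and Elavl3 at 0.73 without AA100 replicate 1, and at 0.045 and −0.25 without AA100 replicate 2. By SMART-seq, Elavl3 ranged from −1.98 without AA100 replicate 1 to 0.0054 without AA100 replicate 2. Hes5 ranged from −4.74 without AA100 replicate 2 to 1.22 without AA3 replicate 1, with 0.41 without AA100 replicate 1.

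Low counts limit Neurog1, Elavl4, and Neurog2 and Hes5 in the method set, which held at most 25 counts a library. Why their counts were low was not tested.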
